A study of Mus musculus with 107 samples.

Results

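The 10 genes described here mark T cells and their main classes: Cd3d, Cd3e, Cd3g, Cd4, Cd8a, Cd8b1, Cd2, Cd5, Cd6 and Foxp3. They were chosen by gene name, and all 10 were found once each among the 50686 genes of the expression table. Bulk RNA-seq values as TPM, a level scaled for transcript length and for the total of its library, were given for 35, 36 and 36 tumors of 3 groups, over 12 mouse syngeneic models, in which a mouse cancer cell line grew under the skin of 7-week-old mice of a matching strain. Base tumors (35) were taken untreated at a size of about 100 mm3, NT tumors (36) were untreated and taken on day 8, and LEN tumors (36) came on day 8 from mice given lenvatinib (LEN), an oral multikinase inhibitor of VEGF and FGF receptors, at 10 mg/kg daily for 7 days.

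The BALB/cAnNCrlCrlj strain carried 6 of the models (BNL 1ME A.7R.1, here BNL, RAG, 4T1, CT26.WT, here CT26, EMT6 and Renca). MC38 and B16-F10 (here B16F10) grew in C57BL/6NCrl mice, LL/2 (here LL2) in C57BL/6JCrl, MBT2 in C3H/HeNCrl, KLN205 in DBA/2NCrl and Hepa 1-6 (here Hepa) in C57L/J. Every model had 3 tumors in each group, except MC38 with 2 Base tumors. Each model was a single cell line, RAG cells were adapted by growth in mice first, and the model and the mouse strain therefore cannot be told apart where a strain carried 1 model. The study lists male hosts for Hepa and BNL and female hosts for the other models, so sex also cannot be told apart from model. The labels do not number the mice, the methods place the implants in the right flank, and p-values measure the spread between these tumors.

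T cells read antigen with a T cell receptor whose signal passes through the CD3 chains, so CD3 transcripts are used as a measure of T cells of all classes. CD8 is the coreceptor of cytotoxic T cells, which bind antigen on MHC class I, and CD4 is that of helper and regulatory T cells, which bind it on MHC class II. Foxp3 is the transcription factor that defines regulatory T cells, which restrain the other classes, and the ratio of CD8 to Foxp3 is a common measure of the immune state of a tumor.

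The members fall into 3 roles. Cd3d, Cd3e and Cd3g encode the delta, epsilon and gamma chains of CD3. They lie together on chromosome 9 (GRCm38): Cd3g at chr9:44969572-44980431 on the minus strand, Cd3d at chr9:44981786-44987339 on the plus strand and Cd3e at chr9:44998740-45009627 on the minus strand. Cd3g and Cd3d are transcribed away from each other from starts 1354 bases apart. The coreceptor genes are Cd4 (chr6:124864692-124888221, minus strand), Cd8a, the CD8 alpha chain (chr6:71373427-71379173, plus strand), and Cd8b1, the beta chain (chr6:71322788-71337494, plus strand), which lies 35932 bases from Cd8a. Cd2, an adhesion receptor of T and NK cells, lies at chr3:101275899-101287939 on the minus strand. Cd5 (chr19:10717116-10739002) and Cd6 (chr19:10789341-10830058), both on the minus strand, encode related scavenger-type receptors that tune T cell receptor signals. Foxp3 lies at chrX:7573644-7595245 on the plus strand.

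The promoters of the 3 CD3 genes are shown because these genes are neighbours that encode chains of a single complex. Each is the 250 bases before the RefSeq start (GRCm38.p6), written 5′ to 3′ on the strand of the gene, with capitals marking motif matches. Cd3g is chr9:44980432-44980681, Cd3d is chr9:44981536-44981785 and Cd3e is chr9:45009612-45009861.
Cd3g: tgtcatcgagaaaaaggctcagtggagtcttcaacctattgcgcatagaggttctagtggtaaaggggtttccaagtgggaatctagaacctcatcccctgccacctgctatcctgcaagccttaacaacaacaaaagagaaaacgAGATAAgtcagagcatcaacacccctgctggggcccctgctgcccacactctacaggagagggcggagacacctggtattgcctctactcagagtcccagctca
Cd3d: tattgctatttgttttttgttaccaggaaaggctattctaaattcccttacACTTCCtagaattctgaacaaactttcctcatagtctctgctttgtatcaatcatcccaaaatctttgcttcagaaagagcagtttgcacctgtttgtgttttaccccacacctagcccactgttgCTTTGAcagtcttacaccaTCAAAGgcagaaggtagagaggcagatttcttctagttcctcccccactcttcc
Cd3e: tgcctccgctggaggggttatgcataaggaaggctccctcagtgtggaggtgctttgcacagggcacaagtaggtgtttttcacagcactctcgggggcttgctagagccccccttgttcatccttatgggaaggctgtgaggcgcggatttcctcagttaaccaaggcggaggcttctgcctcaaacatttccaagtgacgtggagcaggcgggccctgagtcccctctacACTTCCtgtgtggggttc

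The motifs below were searched on both strands in these and all 32851 mouse promoters of the table, and none overlapped another in the sequences printed. The ETS core GGAAGT was held by 19.7% of promoters and appeared, read as ACTTCC, 199 bases before the Cd3d start and 18 bases before the Cd3e start. The TCF/LEF motif CTTTGA (13.8% of promoters) appeared in Cd3d only, at 73 bases before the start and, read as TCAAAG, at 54. The GATA motif AGATAA (9.99%) lay 104 bases before the Cd3g start. Neither the TATA box TATAAA (12.4%), the E-box CAGCTG (13.0%) nor the RUNX motif TGTGGT (14.0%) was in the 3 windows. RefSeq promoters were matched for 6 of the 10 members.

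Tumors resembled their own model: the tumor with the most similar profile came from the same model in every case and from the same group of that model for 100 tumors. Protein-coding genes took 27.5% to 66.6% of the TPM of a tumor, lowest in a 4T1 LEN tumor. The sources used here do not say which of the sequencers named in the methods read which tumor. The tumors are mixtures, so fewer T cells and less RNA per T cell cannot be told apart.

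Before treatment, the 12 models differed widely in T cell transcripts. In the Base tumors Hepa was highest for 9 of the 10 genes and KLN205 was lowest for 7 of them. Cd3e was 21.38, 23.6 and 39.77 TPM in the 3 Hepa tumors and 0.66, 0.89 and 0.74 TPM in the 3 KLN205 tumors. Every Hepa tumor was far above every KLN205 tumor, and the ratio of the means was 37.0.

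Cd8a spanned a wider range than Cd4. Its mean was 22.0 TPM ± 4.02 (SD, n = 3) in Hepa, 4.79 ± 2.73 in CT26, 4.06 ± 0.17 in MC38 (n = 2) and 0.0833 ± 0.0839 in KLN205. Cd8b1 was listed at 0 in all 3 KLN205 Base tumors and averaged 12.6 TPM in Hepa. Cd4 ranged only 8.36-fold, from 7.94 TPM ± 3.77 in Hepa through 4.5 ± 1.88 in MBT2 and 4.38 ± 0.315 in RAG to 0.95 ± 0.356 in B16F10.

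Foxp3 had the narrowest range and another order. It was highest in MC38 at 2.38 TPM ± 0.148 (n = 2), followed by MBT2 at 2.07 ± 0.255 and Hepa at 1.87 ± 0.282, and lowest in KLN205 at 0.847 ± 0.0586, a ratio of 2.81. Of the 11 neighbouring pairs in the order of models, no pair was separated for Foxp3, whereas 3 were for Cd8a and 2 for Cd3e. For Cd3e the order below Hepa ran from CT26 (mean 8.35 TPM) and MC38 (6.26 TPM) down to KLN205. The ratio of mean Foxp3 to mean Cd3e TPM in Base tumors was 1.11 in KLN205 and 0.0663 in Hepa. In B16F10 NT tumor 5, Foxp3 was 0.66 TPM beside 0.14 TPM for Cd3e. Foxp3 overlaps other genes, a limit given below.

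All 10 genes passed the F test for a difference between models (limma, log2(TPM + 1), adjusted p from 5.55e-12 for Cd3g to 6.17e-05 for Foxp3). This was a common result here, since 86.1% of the 25664 genes tested passed it.

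**Figure D1:**
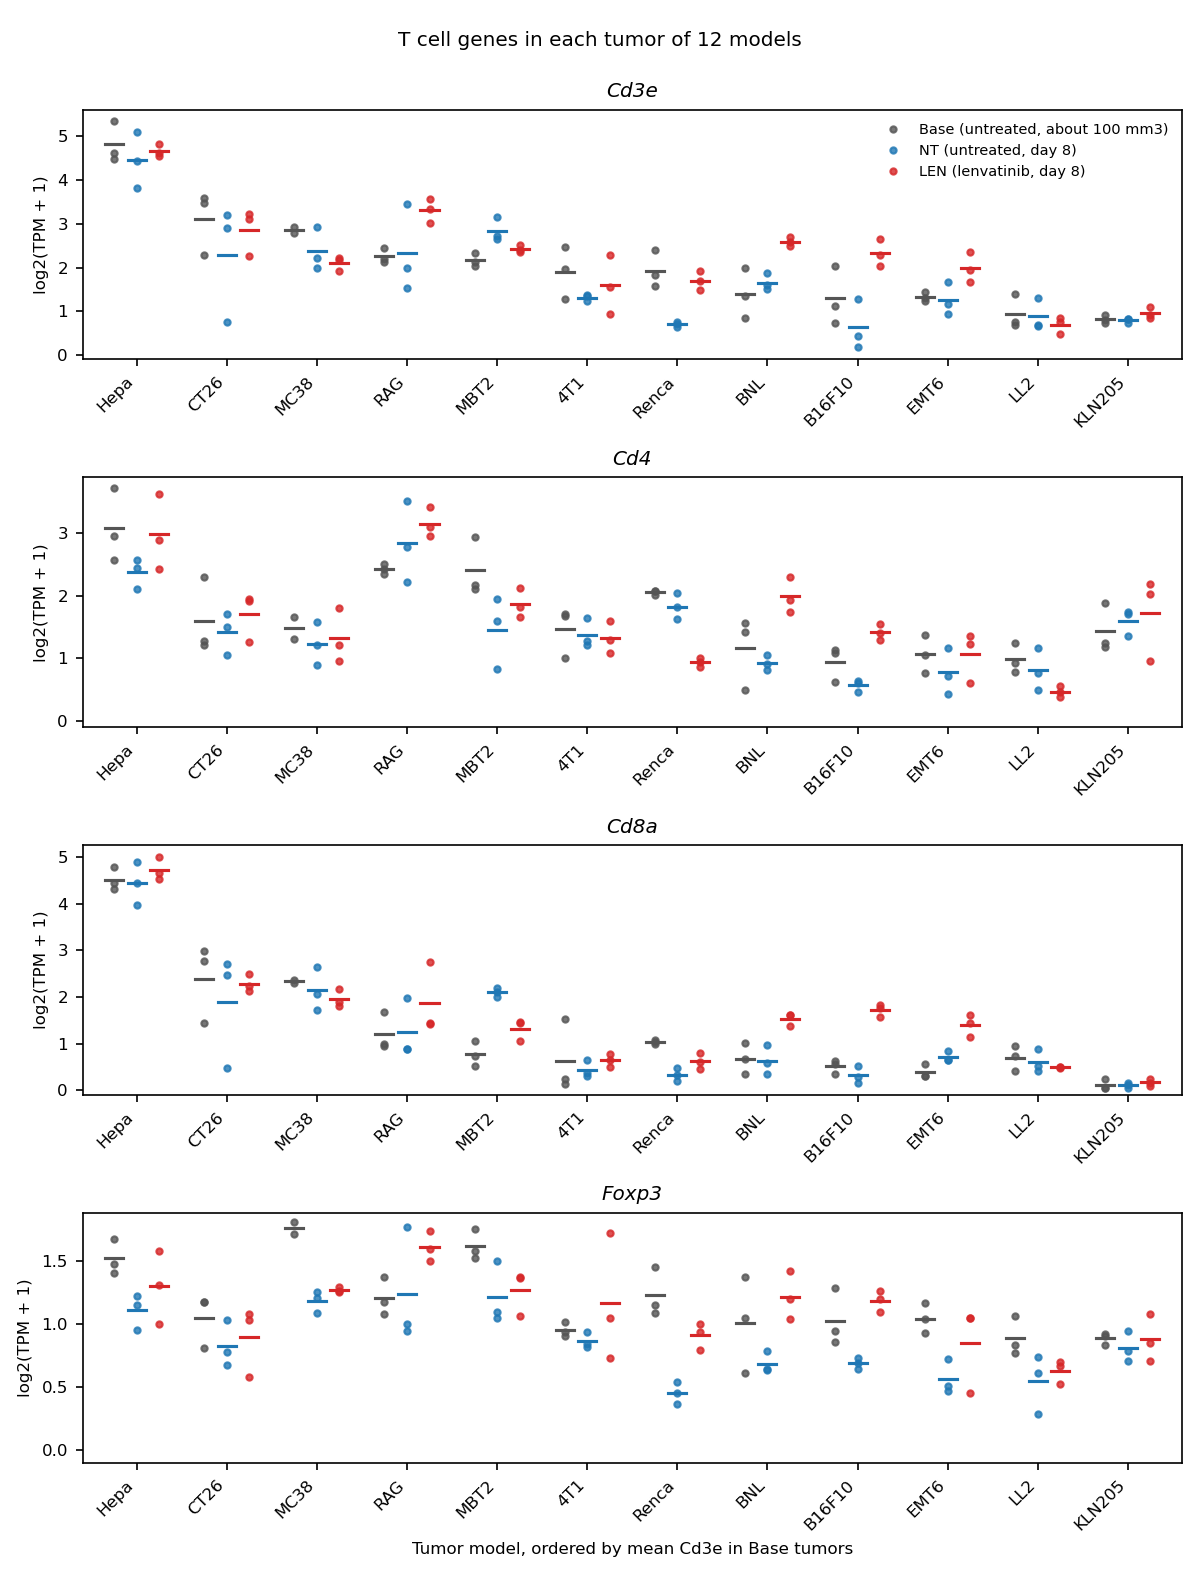
Level of Cd3e, Cd4, Cd8a and Foxp3 on the log2(TPM + 1) scale in every tumor, by model (ordered by mean Cd3e in Base tumors) and group (Base, NT, LEN); each point is 1 tumor and each line a group mean. Hepa has the highest mean for Cd3e and Cd8a in all 3 groups and KLN205 the lowest for Cd8a, while KLN205 is lowest for Cd3e in Base only, and Foxp3 varies less between models, with its vertical axis reaching a lower value than the others.

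How the untreated tumors changed by day 8 was asked by comparing NT with Base tumors. Averaged over the 12 models, 6 of the 10 genes fell: Foxp3, Cd6, Cd5, Cd2, Cd3d and Cd4. The share of all 25687 genes called lower was 11.4%, and that called higher was 11.7%. Of these calls 50.7% were higher, and 24.4% or 20.2% after rescaling by the upper quartile or over protein-coding genes, with 6 or 7 members lower. Neither CD8 gene passed, with mean differences of -0.025 on the log2(TPM + 1) scale for Cd8a (adjusted p = 0.893) and -0.046 for Cd8b1 (adjusted p = 0.745).

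Foxp3 had the lowest adjusted p of the 10 genes. The mean difference was -0.334 log2 (SE 0.045, adjusted p = 3.94e-07), and 11 models had a lower NT mean. In Renca it was 1.12, 1.73 and 1.22 TPM in the Base tumors and 0.45, 0.29 and 0.37 TPM in the NT tumors, with no overlap. The tumors did not overlap in 7 of the models for Foxp3, all with NT lower.

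Among the surface receptors, Cd2 showed the largest mean difference, -0.459 (SE 0.11, adjusted p = 0.00183). Cd6 differed by -0.303 (SE 0.067, adjusted p = 0.00062) and Cd5 by -0.27 (SE 0.072, adjusted p = 0.00421). Of the CD3 chains only Cd3d passed, at -0.346 (SE 0.097, adjusted p = 0.00692). Cd3e (-0.275, adjusted p = 0.097) and Cd3g (-0.209, adjusted p = 0.156) did not. Cd4 was just inside the threshold at -0.242 (SE 0.088, adjusted p = 0.0381), and its call was lost when any of 21 single tumors or any of 7 single models was left out (-0.177, adjusted p = 0.14 without MBT2). For 6 members the mean was lower in at least 10 of the 12 models, against 5.36% of all genes.

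MBT2 and Renca moved in different ways. In Renca 9 of the 10 genes were lower in every NT tumor than in every Base tumor (22.7% of all genes did so), with Cd3e at 1.97, 2.53 and 4.26 TPM before and 0.64, 0.69 and 0.55 TPM at day 8. Cd4 was the exception, at 3.03, 3.2 and 3.19 TPM before and 3.12, 2.51 and 2.08 TPM at day 8. In MBT2, Cd3e, Cd3g, Cd8a and Cd8b1 were higher without overlap (5.77% of all genes), while Cd4 and Foxp3 were lower without overlap (8.49%). MBT2 Cd8a was 0.44, 1.07 and 0.66 TPM in Base and 3.57, 2.98 and 3.31 TPM in NT tumors. In MC38, Cd3d, Cd2, Cd5, Cd6 and Foxp3 were lower without overlap (14.7%). The F test for a difference between models called 0 of the 10 genes (limma, 3 at an unadjusted p under 0.05, lowest adjusted p = 0.0712), against 50.2% of all genes.

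Skeletal muscle markers fell in the same comparison, 5 of 5, with a median of -1.233. Their summed level was 1.55 to 637 TPM in Base and 2.44 to 149 TPM in NT tumors. In the 6 models whose muscle sums overlapped between the groups, Foxp3 (-0.286, adjusted p = 0.00165) and Cd2 (-0.558, adjusted p = 0.0337) were still called and 7 members had an unadjusted p under 0.05, where 2.96% of all genes were called lower. Renca and MBT2 are among the 6 models whose sums did not overlap, with at least 191 TPM in Base and at most 111 TPM in NT tumors of Renca and at least 80.7 and at most 49.8 TPM in MBT2. The part of muscle in the result was not tested.

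Whether lenvatinib changed T cell transcripts was asked by comparing LEN with NT tumors on day 8. Averaged over the 12 models, 9 of the 10 genes rose, while Cd8b1 missed the threshold (0.223, SE 0.087, adjusted p = 0.0645). Of the 25636 genes tested, 10.7% were called higher and 7.56% lower. Of these calls 58.6% were higher, and 43.7% or 48.9% after rescaling by the upper quartile or over protein-coding genes, while 8 or 9 of the members rose. The median difference of the 10 genes was 0.334 on the log2(TPM + 1) scale, and that of all genes was 0. The NT tumors are the same ones that entered the comparison with Base, so the comparisons are not independent of each other. LEN was not tested against Base. Means over the Base, NT and LEN tumors were 4.02, 2.44 and 3.65 TPM for Cd2 and 2.21, 1.47 and 2.01 for Cd3d. They were 1.13, 0.742 and 1.12 TPM for Cd5, 1.65, 1.14 and 1.66 for Cd6, and 2.69, 2.08 and 2.76 for Cd4. Foxp3 had 1.29, 0.843 and 1.19 TPM, and Cd3e 5.2, 4.25 and 5.5. Cd3g had 4.14, 4.01 and 4.8 TPM, Cd8a 3.04, 3 and 3.72, and Cd8b1 1.73, 1.62 and 1.91.

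The CD3 chains each rose in the mean over models but parted in some models. Cd3d and Cd3e differed by -0.141 and 0.996 in RAG and by 0.516 and -0.286 in MC38. The mean over LEN tumors was 5.5 TPM for Cd3e against 4.25 TPM in NT tumors, a mean difference over models of 0.473 (SE 0.11, adjusted p = 0.000915, higher in 9 of 12 models). Cd3g rose by 0.404 (SE 0.10, adjusted p = 0.00303, 10 of 12 models) and Cd3d by 0.365 (SE 0.097, adjusted p = 0.00447, 9 of 12 models). The Cd3g and Cd3d calls were lost without B16F10, as given below.

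Of the coreceptors, Cd8a rose by 0.315 (SE 0.088, adjusted p = 0.00714, 9 of 12 models). Cd4 was just inside the threshold at 0.229 (SE 0.083, adjusted p = 0.0437, 9 of 12 models), and its call was lost when any of 35 single tumors or any of 7 single models was left out.

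The receptors Cd2, Cd5 and Cd6 and the factor Foxp3 rose as well. Cd2 rose by 0.452 (SE 0.10, adjusted p = 0.000546, 10 of 12 models), and Cd6 by 0.348 (SE 0.063, adjusted p = 2.86e-05, 11 of 12). Cd5 rose by 0.321 (SE 0.065, adjusted p = 0.000185) and Foxp3 by 0.249 (SE 0.051, adjusted p = 0.000201), each with a higher mean on the log2(TPM + 1) scale in 12 of 12 models. For Cd5 in MC38 this was a difference of 0.002, with means of 0.81 TPM in NT and 0.807 TPM in LEN tumors. Means were higher in at least 10 models for 5 of the members and for 4.17% of all genes. For Foxp3 the LEN and NT tumors of a model did not overlap in BNL, Renca and B16F10 and overlapped in the other 9 models.

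**Figure D2:**
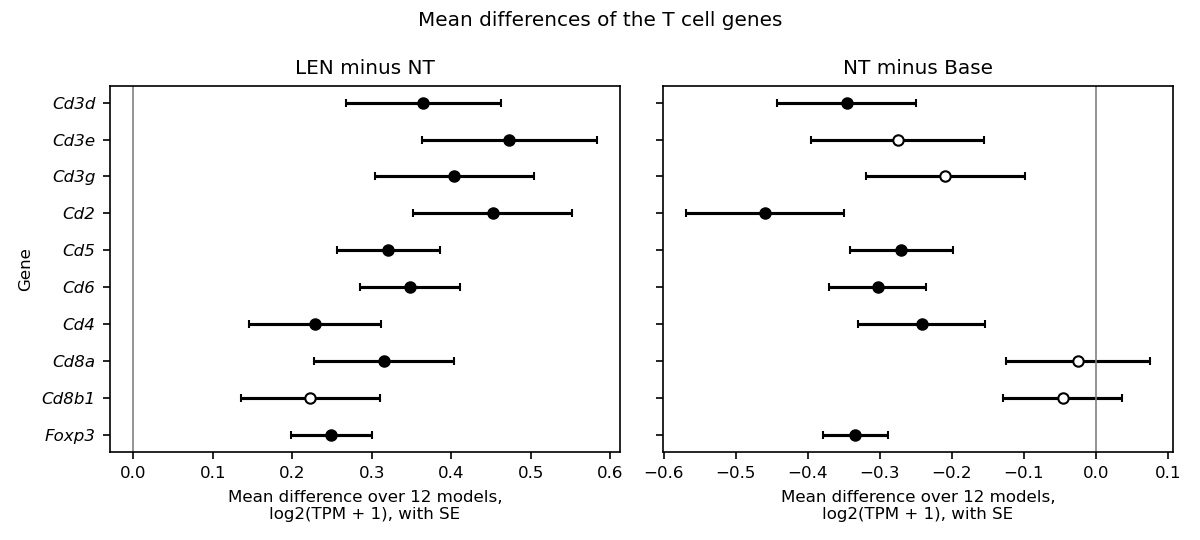
Mean difference over 12 models for each gene, on the log2(TPM + 1) scale, for NT minus Base and for LEN minus NT; points are estimates and bars are standard errors, and filled points passed an adjusted p of 0.05. All 10 genes sit above 0 for LEN minus NT and 8 of them well below 0 for NT minus Base, where both CD8 genes lie close to 0; the NT tumors are shared by both.

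B16F10 weighed on the mean. Without this model 5 members were called, and Cd3d (0.247, adjusted p = 0.106), Cd3g (0.298, adjusted p = 0.059), Cd8a (0.216, adjusted p = 0.126) and Cd4 were lost, and without BNL the Cd8a difference was 0.262 (adjusted p = 0.0561). Skeletal muscle markers rose in the same comparison, 5 of 5 with a median of 1.131, and their sum reached 1530 to 2210 TPM in the BNL LEN tumors against 37.0 to 112 TPM in BNL NT tumors, and 129 to 200 TPM against 2.44 to 21.9 TPM in B16F10. In the 8 models whose muscle sums overlapped between the groups, none of the 10 genes was called by limma, 4 had an unadjusted p under 0.05, and all 10 differences were above 0, from 0.025 for Cd8b1 to 0.315 for Cd3e (3.44% of all genes were called higher). Foxp3 had the lowest adjusted p there (0.199, adjusted p = 0.0571). The part of muscle was not tested.

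The response differed between models for 6 of the 10 genes: Cd2, Cd8a, Cd4, Cd3d, Cd3e and Cd3g, as tested across the 12 model differences (background 28.7%). For Foxp3 (adjusted p = 0.547) and Cd5 (adjusted p = 0.264) no such difference was found. The Foxp3 differences ran from 0.055 in MBT2 to 0.531 in BNL, a narrower spread than those of Cd2, from -0.424 in LL2 to 2.084 in B16F10. Without B16F10 only 1 of the 10 genes differed between models, and 3 did without BNL, without Renca or without MBT2. The Cd3g call was lost when any of 34 single tumors or any of 7 single models was left out, and the Cd3e call with any of 3 tumors or 6 models. In the 8 models whose muscle sums overlapped, 0 of the 10 genes were called by this test (limma, 0 at an unadjusted p under 0.05).

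B16F10 melanomas had the highest median difference of the 10 genes, 1.177. Each of the 10 genes was higher in every LEN tumor than in every NT tumor, as were 19.3% of all genes, and 9 were called within the model (6.48% of all genes were called higher). Cd2 was 0.3, 0.69 and 0 TPM in the NT tumors and 4.63, 5.05 and 3.92 TPM in the LEN tumors, a difference of 2.084 (SE 0.22, adjusted p = 0.00568). Cd8a was 0.22, 0.44 and 0.11 TPM in NT and 1.99, 2.4 and 2.56 TPM in LEN tumors, a difference of 1.405 (SE 0.15, adjusted p = 0.00592). Both genes were thus close to 0 in the NT tumors and uniform among the LEN tumors. The B16F10 Base means were 0.92 TPM for Cd2 and 0.43 TPM for Cd8a.

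Cd3d in B16F10 rose from 0.1, 0.33 and 0.09 TPM in NT to 3.82, 2.05 and 2.47 TPM in LEN tumors (1.667, SE 0.20, adjusted p = 0.00714). Cd3e was 0.35, 1.44 and 0.14 TPM in NT and 5.28, 3.12 and 3.85 TPM in LEN tumors. Foxp3 moved least, from 0.61, 0.56 and 0.66 to 1.39, 1.29 and 1.13 TPM (0.494, SE 0.12, adjusted p = 0.0567), without overlap but outside the threshold. NT tumor 4 held the highest NT level for 8 of the 10 genes, and 4 members were called without NT tumor 2 and 5 without NT tumor 5, LEN tumor 2 or LEN tumor 5. Other leukocyte markers were higher in these tumors as well, as pan-leukocyte markers rose 5 of 5 (median 2.218), macrophage markers 5 of 5 (median 1.646), plasmacytoid dendritic cell markers 4 of 4 (median 1.153) and NK cell markers 4 of 5 (median 0.55). Their part was not tested.

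In BNL, 8 of the 10 genes rose (19.9% of all genes were called higher) and 8 did not overlap (33.5%). Cd4 was 0.87, 1.08 and 0.75 TPM in NT and 2.33, 2.81 and 3.91 TPM in LEN tumors, the largest Cd4 difference of any model (1.065, SE 0.19, adjusted p = 0.00795). Cd8b1 was 0.3, 0.36 and 0.4 TPM in NT and 1.41, 1.88 and 1.96 TPM in LEN tumors (1.018, SE 0.14, adjusted p = 0.00326). Cd3d (adjusted p = 0.0982) and Cd3g (adjusted p = 0.0962), with wide spread among tumors, were not called. Without LEN tumor 4 or LEN tumor 5, 5 members were called, and the Foxp3 call (adjusted p = 0.0452) was lost on leaving out any of 5 tumors and that of Cd8a any of 4. The median over all genes was 0.152 in this model, and the muscle sums given above moved with the group. Plasmacytoid dendritic cell markers rose 4 of 4 (median 1.658), pan-leukocyte markers 4 of 5 (median 0.738) and type 1 dendritic cell markers 3 of 5 (median 0.56), and their part was not tested.

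In Renca the CD3 genes and Cd4 parted. Cd3e rose from 0.64, 0.69 and 0.55 to 2.21, 1.82 and 2.79 TPM (0.999, SE 0.14, adjusted p = 0.00819), and Cd3d and Cd5 passed too (3.48% of all genes were called higher). Cd3g was higher without overlap but was not called (limma, 0.699, SE 0.19, adjusted p = 0.0749). The Cd3d call was lost on leaving out any of 5 tumors and the Cd5 call any of 4, so that 1 member was called higher without NT tumor 2 or LEN tumor 2, 4 or 5. In the fit of all 72 tumors none was called higher by limma (4 at an unadjusted p under 0.05), with Cd3e at an adjusted p of 0.102. Cd4 fell from 3.12, 2.51 and 2.08 to 0.91, 0.82 and 1.01 TPM (-0.891, SE 0.14, adjusted p = 0.0131, with 5.02% of all genes lower), a call that was lost without LEN tumor 2 (adjusted p = 0.0512) or LEN tumor 4 (adjusted p = 0.0574). The groups did not overlap for Cd4 (lower, as for 17.5% of all genes), nor for 8 of the genes that were higher (12.1%). Foxp3 was 0.45, 0.29 and 0.37 TPM in NT and 1, 0.73 and 0.91 TPM in LEN tumors (adjusted p = 0.0501).

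Macrophage markers fell in Renca, as Cd4 did. Their sum was 489 to 561 TPM in NT and 292 to 303 TPM in LEN tumors, and 4 of 5 fell (median -1.528). Macrophage medians were also negative in RAG (-0.685), CT26 (-0.789), MC38 (-0.792), MBT2 (-0.488) and KLN205 (-0.765). The Cd4 differences there were positive (0.313, 0.288, 0.1, 0.408 and 0.126). Both were negative in 4T1 and LL2 and positive in BNL, EMT6, B16F10 and Hepa. Renca muscle sums overlapped, at 11.9 to 111 TPM in NT and 45.6 to 75.9 TPM in LEN tumors. CD4 is also made by some mouse dendritic cells, and the plasmacytoid dendritic cell marker sum was 1.99 to 2.68 TPM in NT and 4.17 to 5.23 TPM in LEN tumors. The part of these cells in the Cd4 result was not tested.

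The other 9 models had 0 of the tested members called by limma, and 0% to 0.304% of all genes were called higher there and 0.00418% to 0.059% lower. In EMT6, 6 of the 10 genes had an unadjusted p under 0.05, and 4 did not overlap (12.9% of all genes). EMT6 muscle sums did not overlap either, with at most 41.9 TPM in NT and at least 51.8 TPM in LEN tumors. LL2 muscle sums were at most 11.7 TPM in NT and at least 13.9 TPM in LEN tumors. The part of muscle was not tested. EMT6 Cd8a was 0.56, 0.57 and 0.78 TPM in NT and 1.73, 1.21 and 2.08 TPM in LEN tumors (0.697, SE 0.19, adjusted p = 0.174). All 10 means were higher with LEN in EMT6 and in Hepa, but Hepa tumors overlapped for each gene, as for Cd8a with 20.75, 14.68 and 28.7 TPM in NT and 24.13, 31.08 and 21.98 TPM in LEN tumors.

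In MBT2 the CD3 and CD8 genes had lower means with LEN, and the other 5 members had higher means. Cd3d, Cd3e, Cd3g and Cd8a were lower in every LEN tumor than in every NT tumor (9.36% of all genes), with 4 genes at an unadjusted p under 0.05 and none called. Cd8a was 3.57, 2.98 and 3.31 TPM in NT and 1.72, 1.75 and 1.09 TPM in LEN tumors, a mean of 3.29 ± 0.296 against 1.52 ± 0.373 (adjusted p = 0.176). The means of Cd4 (0.408), Cd2 (0.386), Cd6 (0.324) and Cd5 (0.082) were higher with LEN, and their tumors overlapped. Foxp3 differed by 0.055 there, with 1.83, 1.13 and 1.06 TPM in NT and 1.57, 1.59 and 1.09 TPM in LEN tumors, and overlapped. In KLN205, where Cd8b1 was below the minimum, 9 genes were tested and Cd8a stayed at 0.19 TPM or below in every day 8 tumor.

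RAG and CT26 were uneven within their NT groups. In RAG the Cd3e mean was 4.93 TPM ± 4.38 in NT and 9.09 ± 1.88 in LEN tumors, and the groups overlapped through NT tumor 2, which had 9.95 TPM beside 2.94 and 1.89 TPM in the other NT tumors. That tumor was also the highest of its group for each of the other 9 genes, with Cd4 at 10.42 TPM and Foxp3 at 2.41 TPM. In CT26, NT tumor 5 stood low, with Cd8a at 0.4 TPM beside 4.51 and 5.54 TPM, while the LEN tumors had 3.34, 3.74 and 4.61 TPM. The CT26 difference for Cd8a was 0.398 with an SE of 0.56.

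In 4T1, Cd3e was 1.34, 1.59 and 1.54 TPM in NT and 3.91, 0.93 and 1.94 TPM in LEN tumors. The low LEN value was that of tumor 4, which had the lowest protein-coding share (27.5%) and the fewest genes above 0 (21216) of all tumors, and the other LEN tumors lay above every NT tumor. In MC38, Cd3d alone was higher without overlap (as were 9.48% of all genes), at 1.11, 1.22 and 1.48 TPM in NT and 2.22, 2.15 and 2.35 TPM in LEN tumors, while Cd3e (-0.286, SE 0.25) and Cd8a (-0.185, SE 0.25) had lower means and overlapped. In LL2 the means of Cd4 (-0.342, SE 0.19) and Cd2 (-0.424, SE 0.2) were lower with LEN. LL2 Cd4 was 1.24, 0.41 and 0.7 TPM in NT and 0.37, 0.31 and 0.47 TPM in LEN tumors, and Cd8a lay between 0.34 and 0.84 TPM in all 6 tumors.

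**Figure D3:**
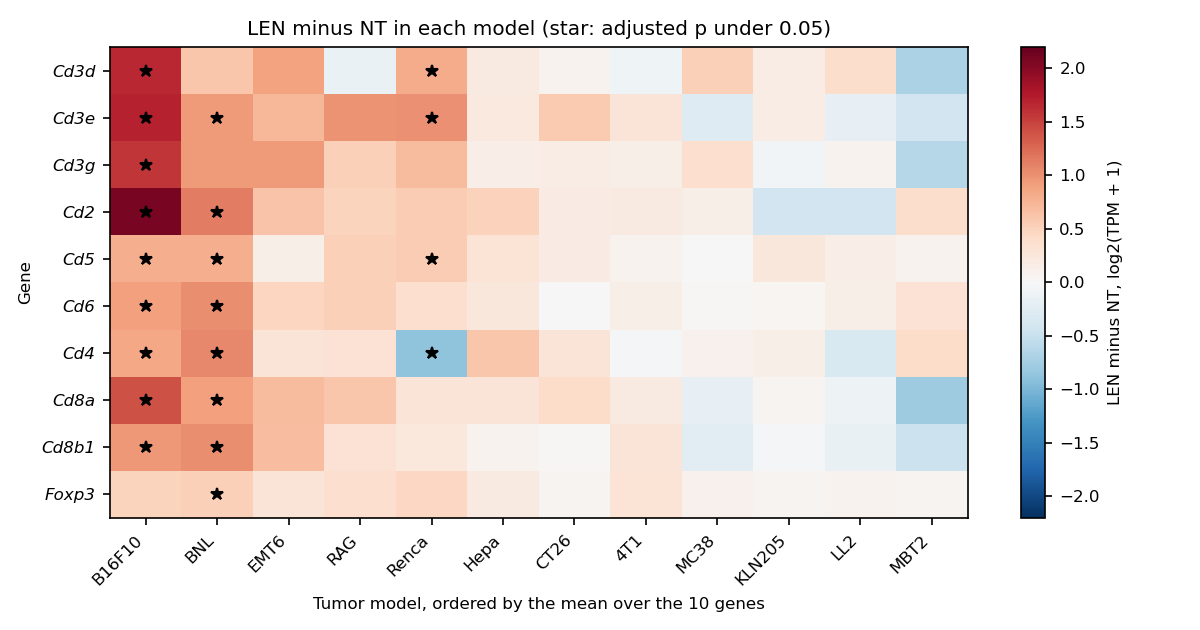
LEN minus NT difference of each gene in each model on the log2(TPM + 1) scale (color scale, 0 in the middle); stars mark cells that passed an adjusted p of 0.05 within the model. B16F10 and BNL are higher throughout, MBT2 is lower for the CD3 and CD8 genes, and Renca Cd4 is lower while Renca Cd3e is higher.

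The balance of Cd8a to Foxp3 was taken as log2(Cd8a + 1) minus log2(Foxp3 + 1) in TPM, and is given as a description. Before treatment it was 2.99 ± 0.371 (SD, n = 3) in Hepa, 1.342 ± 0.937 in CT26 and 0.58 ± 0.0149 in MC38 (n = 2), and lowest in MBT2 (-0.848 ± 0.148) and KLN205 (-0.772 ± 0.155). The added 1 compresses low levels, and the plain ratio of mean Cd8a to mean Foxp3 TPM was 0.0984 in KLN205, 0.295 in EMT6 and 0.349 in MBT2. The balance was above 0 in 10 of 35 Base, 17 of 36 NT and 21 of 36 LEN tumors, with medians of -0.346, -0.053 and 0.26.

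From Base to NT the balance was higher in 10 of 12 models, by 0.309 on average (SD 0.524 over models). MBT2 moved farthest, by 1.734, with its 3 NT tumors between 0.691 and 1.065 and its Base tumors between -0.995 and -0.699. Without MBT2 the mean was 0.18. EMT6 moved by 0.798, also without overlap.

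From NT to LEN the balance had no common direction: it was higher in 6 models and lower in 6, and the mean difference was 0.066 (SD 0.437). B16F10 went from -0.365 to 0.545 and EMT6 from 0.144 to 0.554, both without overlap, while MBT2 went from 0.886 to 0.056, also without overlap. In the other 9 models the tumors overlapped, Hepa staying between 2.82 and 4.004. Leaving out each model in turn gave -0.011 (without B16F10) to 0.147 (without MBT2). With Cd8b1 in place of Cd8a the balance was higher with LEN in fewer models, as given in the last section. Cd8a and Foxp3 both rose in the mean over models, and their difference did not shift beyond the spread between models.

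**Figure D4:**
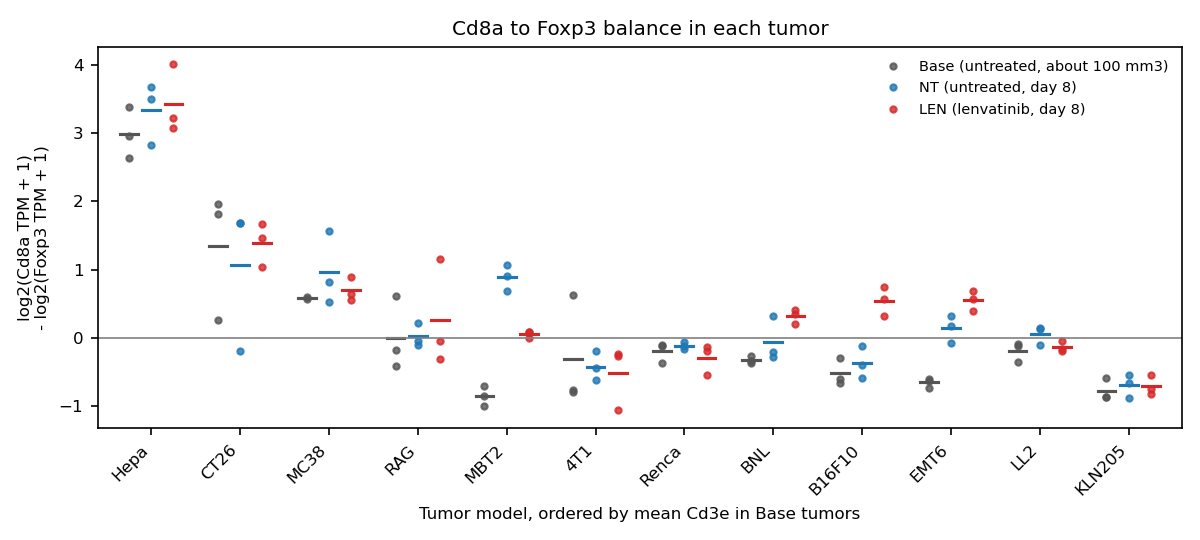
Cd8a to Foxp3 balance (log2(Cd8a + 1) minus log2(Foxp3 + 1)) by model and group; points are tumors and lines are group means. B16F10 and EMT6 are higher and MBT2 lower with LEN than NT without overlap, and Hepa lies above the other models in all groups.

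Cd4 was set against Cd3e in the same way, as the ratio of mean TPM. It was between 0.19 and 0.302 in the 3 Hepa groups and 2.32 to 2.79 in the KLN205 groups, where Cd4 exceeded every CD3 gene. In Renca it was 1.08 in Base, 4.1 in NT and 0.402 in LEN tumors, so the NT tumors stood apart on both sides. MBT2 went from 1.28 in Base to 0.302 in NT and 0.612 in LEN tumors. Cd8b1 was 0.379 to 0.612 times the level of Cd8a over the 9 Hepa tumors. The ratio was less even elsewhere, from 0.58 to 3.5 over the 4T1 Base tumors, and that of the means was 1.19 in MBT2 Base and 0.484 in MBT2 NT tumors. The value of 3.5 came from low levels, Cd8b1 at 0.35 TPM and Cd8a at 0.1 TPM in 4T1 Base tumor 3.

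Other genes of T cells rose in part with LEN. Of 19 T cell receptor partners and signaling genes, 8 rose with LEN (10.7% of all genes), among them Trbc2, a T cell receptor beta constant gene (0.573, adjusted p = 0.000448), and Prkcq, a protein kinase C of T cells (0.304, adjusted p = 0.00166). Of 12 T cell transcription factors 4 rose, led by Zbtb7b, which directs the CD4 lineage (0.316, adjusted p = 1.44e-08), then Satb1 (0.43, adjusted p = 0.000135) and Bcl11b (0.189, adjusted p = 0.0031). Zbtb7b averaged 27.6 TPM in NT tumors against 0.552 TPM for Bcl11b, a level far above those of most T cell genes here.

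Of the 11 regulatory T cell genes tested, 6 rose with LEN. Il2ra, the IL-2 receptor alpha chain, differed by 0.506 (adjusted p = 5.05e-08), Ctla4, an inhibitory receptor, by 0.473 (adjusted p = 2.86e-05, higher in 12 of 12 models) and the chemokine receptor gene Ccr8 by 0.248 (adjusted p = 0.0013). From Base to NT, 15 of the 19 receptor partners, 6 of the 12 factors and 9 of the 11 regulatory genes fell (11.4% of all genes). The median LEN differences of these lists were 0.188, 0.116 and 0.187, against 0 for all genes.

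Markers of other cells were read beside these, and several of their counts are near the shares of all genes called, 10.7% higher and 7.56% lower with LEN and 11.7% higher and 11.4% lower in NT. With LEN, 4 of 4 plasmacytoid dendritic cell markers rose (median 0.492), as did 3 of 5 NK cell markers, 2 of 7 gamma delta T cell markers, 2 of 5 pan-leukocyte markers, 1 of 5 type 1 dendritic cell markers and 1 of 6 lymph node markers. Macrophage markers fell, 4 of 5 (median -0.386), and 0 of 3 B cell, 0 of 4 melanocyte and 0 of 4 hepatocyte markers passed by limma, of which 0, 1 and 0 had an unadjusted p under 0.05. Cox6a2 on the plasmacytoid list is also a gene of striated muscle. From Base to NT, 4 of 4 plasmacytoid, 5 of 5 pan-leukocyte, 4 of 5 type 1 dendritic cell, 3 of 5 NK, 3 of 7 gamma delta, 2 of 5 macrophage, 1 of 5 lymph node and 1 of 4 melanocyte markers fell, 1 of 3 B cell markers rose, and 0 of 4 hepatocyte markers passed (limma, 0 at an unadjusted p under 0.05). The part of these cells in the T cell gene results was not tested.

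Across all tumors the members varied together to unequal degrees. Cd8a and Cd8b1 had a Pearson r of 0.971 on the log2 scale and 0.831 once the mean of each model and group was removed, and Cd3e and Cd3g had 0.955 and 0.762. Cd3d was less close to its neighbours, with 0.878 and 0.542 for Cd3e and 0.897 and 0.543 for Cd3g, and Cd3g and Cd8a had 0.948 and 0.767. Foxp3 had r of 0.431 to 0.671 with the other 9 genes and Cd4 had 0.533 to 0.727. After removal of group means the ranges were 0.0988 to 0.56 for Foxp3, 0.187 to 0.589 for Cd4 and 0.187 to 0.543 for Cd3d. These are descriptions over tumors that share models and strains.

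The genes most like each member among 16066 others were named by the same r. For Cd3e they included Zap70 (0.926), Pdcd1 (0.915), Ubd (0.913) and Gimap3 (0.911). For Cd8a they were Pdcd1 (0.953), which encodes PD-1, Cd28 (0.935), Ubd (0.923), Klrc1 (0.922) and Tox (0.918). Those nearest to Foxp3 were Il2ra (0.731), Izumo1r (0.705), Cfb (0.701), Ccr8 (0.696) and Il18bp (0.692). Those nearest to Cd4 were Pdcd1lg2 (0.819), Cd74 (0.818), Rasgrp1 (0.81), Slamf6 (0.805) and H2-Aa (0.805). These r hold the differences between models: after removal of group means they were 0.648 to 0.709 for the genes named for Cd3e, 0.68 to 0.791 for Cd8a, 0.405 (Il18bp) to 0.662 (Il2ra) for Foxp3 and 0.453 (Pdcd1lg2) to 0.613 (Rasgrp1) for Cd4. The order among the named genes then changed for Cd3e, Cd8a and Cd4 and stayed for Foxp3.

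Foxp3 shares sequence with 4 annotated genes, Ccdc22, Gm36995, Ppp1r3f and Flicr. Ccdc22 on the opposite strand covers 1437 of its exon bases at its 3′ end and averaged 9.862 TPM, from 4.58 to 15.9, above Foxp3 in all tumors, and Gm36995, also opposite, spans the whole gene. Ccdc22 had means of 9.92, 9.95 and 9.72 TPM in Base, NT and LEN tumors, and its r with Foxp3 over tumors was 0.471, or 0.294 after removal of group means. The span of Flicr, on the same strand, introns included, covers 853 of the exon bases of Foxp3. Flicr averaged 0.61 TPM, and its reads there could not be separated by strand. Cd3e overlaps the antisense gene Gm48719, which averaged 0.086 TPM. The sources used here do not say whether the counting used strand, so reads in these stretches may not be told apart. The low Foxp3 levels of models such as KLN205, the narrow Foxp3 range and the Cd8a to Foxp3 balance are to be read with that limit.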

How the data were processed

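RNA-seq libraries depleted of ribosomal RNA were made from 35 Base, 36 NT and 36 LEN mouse tumors. Per the labels and methods, the authors demultiplexed with bcl2fastq, trimmed reads with Trimmomatic 0.36, aligned them to mm10 (GRCm38, Ensembl 88) with STAR 2.5.2b and estimated TPM with RSEM 1.2.31. The authors deposited 1 table of TPM with 2 decimals. TPM keeps no read total, so depth per tumor is unknown and no counting interval is given, and strand use is not given in the sources used here.

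The 10 members and all gene lists were chosen with earlier results of these data known. Genes with a mean of at least 0.1 TPM over the tumors of a fit were tested as log2(TPM + 1), which understates changes of low genes, with limma 3.58.1 (lmFit and eBayes with a trend) in R 4.3.3, and p-values were adjusted over all genes tested (Benjamini-Hochberg, threshold 0.05, two-sided). Fits were a Base F test over 12 models, LEN minus NT over 24 groups of 72 tumors (mean over models, F test, and 3 against 3 tumors within each model), and NT minus Base. Groups came from the labels. Besides the members, the text names the 3 genes of each fixed list with the lowest adjusted p for LEN minus NT, where the list is discussed, and the 5 genes most alike to Cd3e, Cd4, Cd8a and Foxp3. A gene that this rule names is not reported here. Alternatives were a pseudocount of 0.1, another or no minimum, upper-quartile and protein-coding rescaling, another fit, a replicate block, leaving out each tumor and model and, chosen after seeing the data, leaving out models whose muscle sums did not overlap. The fits were tested on simulated data. Positions are from GENCODE M21, promoters from RefSeq (GRCm38.p6). Python 3.11.15, numpy 2.4.6, pandas 2.3.3 and matplotlib 3.10.9 were used.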

Additional observations from a re-analysis of the deposited data

Results flagged for a closer look

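The LEN minus NT difference was not the same in all models for 6 genes, by the F test over the 12 model differences (limma, Benjamini-Hochberg), which called 28.7% of all genes. Without B16F10 it called 1 of the 10 genes, and without BNL, Renca or MBT2 it called 3. In the 8 models whose muscle sums overlapped between LEN and NT tumors it called 0 (limma, 0 at an unadjusted p under 0.05). The adjusted p was 0.00419 for Cd2, 0.00879 for Cd8a, 0.0109 for Cd4, 0.0128 for Cd3d, 0.0294 for Cd3e and 0.0434 for Cd3g. B16F10 lay at the upper end for Cd2, Cd8a, Cd3d, Cd3e and Cd3g. MBT2 lay at the lower end for Cd8a, Cd3d, Cd3e and Cd3g, with LL2 there for Cd2. For Cd4 the ends were BNL (1.065) and Renca (-0.891).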

How the results depend on the processing

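With each tumor or model left out in turn, the members higher with LEN numbered 5 to 10 (5 without B16F10), those lower at day 8 without treatment 5 to 7, and those with a LEN difference between models 1 to 8 (1 without B16F10). For NT minus Base that number was 0 to 2, and it was 1 with a pseudocount of 0.1. Cd8a and Cd8b1, not called in NT minus Base, ranged from -0.148 to 0.036 and from -0.094 to 0.002 with models left out, and reached 0.034 and 0.001 with tumors left out. Within models, BNL had 5 to 8 members higher, B16F10 4 to 9, Renca 1 to 3, and lower calls 0 to 1 (Renca Cd4). In the fit of all 72 tumors Renca had 0 members higher (limma, 4 at an unadjusted p under 0.05), and calls over all genes summed over models were 10513 higher and 6743 lower. LEN genes called higher ranged from 1609 (without BNL) to 3653, and genes differing between models from 4152 (without BNL) to 9934. NT minus Base genes called higher ranged from 1814 (without KLN205) to 3879.

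Scaling moved the split over all genes more than the members: of LEN calls 58.6% were higher, 43.7% after upper-quartile and 48.9% after protein-coding rescaling (3416 and 3030 genes lower), and of NT minus Base calls 50.7%, 24.4% and 20.2% (1501 and 1275 higher, 4651 and 5042 lower). The members higher were 9, 8 and 9 and those lower 6, 6 and 7. Within models, 3776 and 3818 gene calls were lower.

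Without the models whose muscle sums did not overlap, chosen after seeing the data, LEN gave 875 genes higher, 1823 differing between models and 0 members in either limma test (4 and 0 at an unadjusted p under 0.05), and NT minus Base 963 higher, 753 lower, 8453 differing between models and 2 members lower. These fits hold fewer tumors.

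Same-numbered tumors did not deviate together (r -0.08 to 0.078 over 20 NT and LEN pairs and -0.146 to 0.101 over 25 Base and NT pairs), so the numbers only name tumors. With a replicate block, LEN had 3 members and 1494 genes higher and 2481 genes differing between models, and NT minus Base 3 members lower, 1 differing, 1136 genes higher, 1178 lower, 5133 differing, and Cd8a at 0.049. Within the 8 models whose NT and LEN tumors share at least 2 numbers the block left 0 member calls higher, 0 lower, 0 gene calls higher and 0 lower (limma, 18, 6, 7796 and 9686 at an unadjusted p under 0.05), against 12, 1, 2329 and 1497 calls without it. With Cd8b1 in place of Cd8a the balance was higher with LEN in 3 models rather than 6. TPM does not show depth, so the reads behind members under 1 TPM are unknown.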
